A study of Gallus gallus with 24 samples.

Results

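Expression of 8 genes that handle iron and haem was examined in chicken peripheral blood mononuclear cells (PBMCs): TFRC, SLC11A1, FTH1, NCOA4, SLC40A1, IREB2, ACO1 and HMOX1. They were chosen by name, and all 8 were found, 1 entry each, among the 23910 genes of the count table and among the 20266 genes that had at least 2 reads over all libraries. PBMCs of 6 Cobb500 broiler chickens, 4 to 6 weeks old, were cultured for 24 h in medium (control), with Bacillus subtilis DSM 32315 (BS) or Bacillus velezensis CECT 5940 (BV) at 3 live bacteria per PBMC, or with 10 µg/ml of concanavalin A (conA), the positive control, a lectin of plant origin that stimulates T cells. All cells had spent a night in culture before treatment and were kept in medium with chicken serum, and no antibiotic was added during the co-culture. The duplicate wells of each chicken were pooled before sequencing, so that each of the 24 libraries of total RNA stands for 1 chicken in 1 condition.

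Cells take up iron by endocytosis of transferrin bound to its receptor, store what they do not need in ferritin, and export it through ferroportin. When iron is short, the iron regulatory proteins bind hairpins in the messenger RNAs of these genes, which stabilises the message of the transferrin receptor and blocks the translation of ferritin and ferroportin, so that much of this control is known to act after transcription. Macrophages of tissues recycle the haem of red cells, activated lymphocytes need iron to divide, and withholding iron from bacteria is a known part of the innate defence.

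Libraries held 12170873 to 31242160 reads assigned to genes (median 23952895), and the deposited normalized read counts are these counts divided by a size factor per library. Levels of different genes are not compared below, because these values are not corrected for gene length. T cell markers (9 of 10 symbols found, CD3E, CD3D and LCK among them) were present in every library, with summed normalized counts of 86500 to 131655. TCF7 alone had 34290.3 to 68009.3 of these. The monocyte or macrophage list (12 of 13 symbols) summed to 209 to 1229, and its defining genes CD14 and MARCO had 0 reads in 1 and 2 libraries. For the same reason, the sums of different lists give no proportions of cells. Thrombocyte markers (7 of 8 symbols) separated the chickens. Their sum was 97622 in the control library of chicken 1 and 35784 in that of chicken 2, against 966 to 4441 in those of chickens 3 to 6. After conA it was 674 to 15763 and lower than the control in 5 of 6 chickens. In bulk RNA, fewer cells of a type and less RNA per cell cannot be told apart.

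Libraries that share a replicate number were taken to come from 1 chicken. The conA libraries labelled chicken 3 and chicken 5 did not resemble the others of their number: across genes, the deviations of conA library 3 from its group mean had a correlation of -0.0344 with control library 3 and 0.484 with control library 5, and those of conA library 5 had one of 0.0796 with control library 5 and 0.312 with control library 3. Both were also nearer to the exchanged number in BS (0.275 and 0.431, against -0.0249 and -0.0827 for their own). In BV the values were 0.423 and 0.446, against -0.02 and -0.0309. In control, BS and BV alike, conA library 3 was closest to number 5 and conA library 5 to number 3. The labelled numbers were kept. Comparisons of whole groups do not use these numbers. For conA, calls within chickens are therefore given with and without chickens 3 and 5.

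Expression was compared between groups with the quasi-likelihood test of edgeR, in which a gene passed at an adjusted p under 0.05 over all genes, and also within chickens, by adding the chicken to the same model as a block. After BS, 0 of the 8 genes passed between groups, where 0% of all genes did, and 0 within chickens, where 1.04% of all genes did. After BV, 0 of 8 passed between groups, against 0.00493% of all genes, and 0 within chickens, against 0.913%. At an unadjusted p under 0.05, 0 of the 8 were found for either strain between groups, by edgeR or by DESeq2. In edgeR 3.14% of all genes were for BS and 2.95% for BV, and in DESeq2 2.71% and 2.23%. Within chickens, in edgeR, 2 of 8 were found for BS (HMOX1 and TFRC), against 10.8% of all genes, and 2 for BV (HMOX1 and SLC11A1), against 10.9%. After conA, 0 of 8 passed between groups, against 2.34% of all genes, with 2 (NCOA4 and SLC40A1) at an unadjusted p under 0.05, as were 12.8% of all genes. Within chickens 1 of 8 passed, SLC40A1, against 6.12%, and 1 of 8 without chickens 3 and 5, again SLC40A1, against 4.22%. In DESeq2, between groups, NCOA4 and SLC40A1 passed, as did 3.85% of all genes. No member had an absolute log2 fold change (FC) above 1.5 together with an adjusted p under 0.05 in any of these tests, which is the threshold of the study's methods. The ranges of 0 of the 8 genes were separate between control and conA, as they were for 2.27% of all genes.

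**Figure D1:**
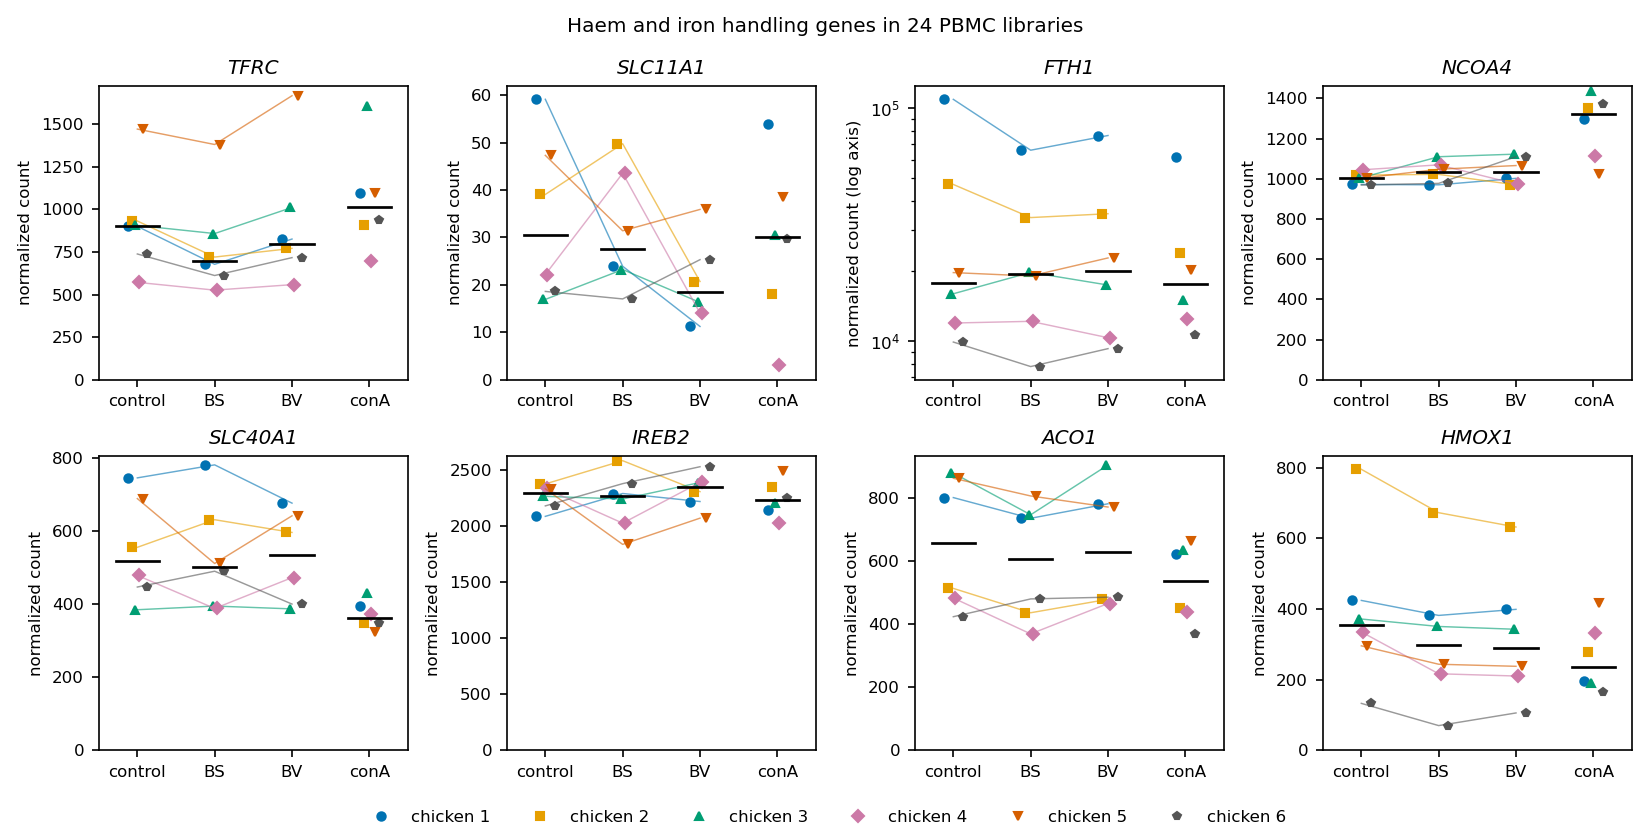
Normalized read count of each gene (vertical axis, logarithmic for FTH1 and from 0 for the others) in the control, BS, BV and conA libraries of 6 chickens (horizontal axis). Symbols and colours stand for chickens, black bars are group medians, and thin lines join the control, BS and BV libraries of a chicken. HMOX1 lies lower in BS and in BV than in the control in each of the 6 chickens, and NCOA4 lies at 969.0 to 1044.5 in the control and reaches 1438.0 after conA.

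**Figure D2:**
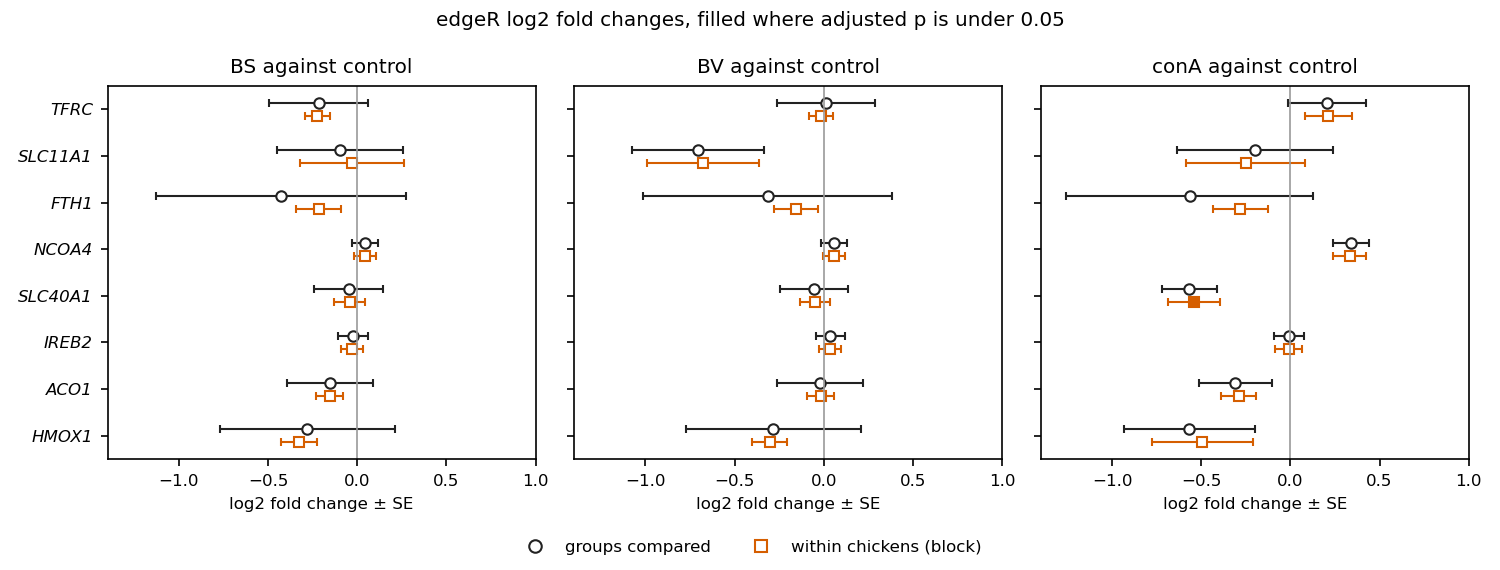
Log2 FC against the control for the 8 genes with standard errors as bars (horizontal axis), by edgeR between groups (circles) and within chickens (squares). Filled symbols mark an adjusted p under 0.05, which SLC40A1 alone reached here, after conA and within chickens.

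TFRC encodes the transferrin receptor, through which cells take up iron. In the control it had 572.0 to 1470.4 normalized counts (median 903.0). After BS it had 526.3 to 1380.0 (median 698.9), after BV 558.4 to 1666.1 (median 798.5), and after conA 698.9 to 1603.2 (median 1014.2). The 4 ranges overlapped widely, since chicken 5 was the highest and chicken 4 the lowest in the control, BS and BV alike.

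Within chickens, TFRC was lower after BS than in the control in 6 of 6 chickens, with a mean difference of -124 ± 78.02 normalized counts (SD, n = 6). A gene was lower in 6 of 6 chickens after BS in 2.27% of all genes, and 2 of the 8 members were, TFRC and HMOX1. The two-sided exact paired permutation test gave p = 0.03125, the smallest value that 6 pairs allow, and an adjusted p of 0.646 over all genes. In edgeR, log2 FC was -0.22 ± 0.28 (SE) between groups (adjusted p = 1) and -0.22 ± 0.07 within chickens (adjusted p = 0.135), so TFRC did not pass after BS. After BV, it was lower than the control in 4 of 6 chickens, with a mean difference of 5.146 ± 127.4 (SD, n = 6).

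TFRC was also lower after BS than after BV in 6 of 6 chickens, with a mean difference of -129.2 ± 91.29 normalized counts (SD, n = 6). This held for 1.16% of all genes and for 1 of the 8 members. The exact paired permutation p was again 0.03125, with an adjusted p of 1. In edgeR the log2 FC of BS against BV was -0.21 ± 0.07 within chickens (adjusted p = 1). Both comparisons use the same BS libraries.

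After conA, TFRC did not differ from the control beyond the spread of the chickens, with 1055.7 ± 305.7 against 919.7 ± 302.6 (SD, n = 6) and a log2 FC of 0.20 ± 0.22 (adjusted p = 0.749). Against BS, log2 FC was 0.43 ± 0.27 between groups (adjusted p = 0.498) and 0.47 ± 0.12 within chickens (adjusted p = 0.00629), so TFRC was higher after conA than after BS in the second test. It passed there whichever chicken was left out (adjusted p of 4.4e-05 to 0.0475), and without chickens 3 and 5 log2 FC was 0.51 ± 0.09 (adjusted p = 0.00044). Against BV, the value within chickens was 0.26 ± 0.12 (adjusted p = 0.172), and it passed without chickens 3 and 5, at 0.35 ± 0.09 (adjusted p = 0.0131). TFRC is known to be high in dividing cells, and the proliferation list (12 of 15 symbols found) summed to 5700 to 7161 in the control and 6311 to 9491 after conA, higher in 5 of 6 chickens. The part of these cells in the TFRC values was not tested.

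SLC11A1 encodes NRAMP1, a transporter of phagosome membranes known from mouse macrophages, where it moves iron and other divalent metals away from engulfed bacteria. It was sparsely covered, with 3 to 64 reads per library. The control had 17.0 to 59.1 normalized counts (median 30.6), BS 17.1 to 49.7 (median 27.7), BV 11.3 to 35.9 (median 18.5) and conA 3.1 to 53.9 (median 30.1). It was lower after BV than in the control in 5 of 6 chickens, and the ranges overlapped.

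The log2 FC of SLC11A1 after BV was -0.70 ± 0.37 between groups (adjusted p = 1) and -0.68 ± 0.31 within chickens (adjusted p = 0.426). Chickens 1 and 2 gave -1.56, and without chicken 1 the value between groups was -0.37. After BS, log2 FC was -0.10 ± 0.35 and after conA -0.20 ± 0.44, and neither passed. The monocyte or macrophage list summed to 209 to 1219 in the control and 308 to 1012 after BV, and its part in the SLC11A1 values was not tested.

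FTH1 encodes the heavy chain of ferritin, the subunit that oxidises iron for storage. In the control it had 9905.2 to 109096.6 normalized counts (median 17822.9), an 11-fold range. After BS the counts were 7773.7 to 65996.3 (median 19377.7), after BV 9279.5 to 76312.2 (median 20074.3), and after conA 10609.1 to 61490.8 (median 17531.6). Chicken 1 was the highest and chicken 2 the next in all 4 groups. The coefficient of variation in the control was 108%, and 95.9% of the 13035 genes with a control mean of at least 10 varied less.

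No treatment changed FTH1 beyond this spread. Log2 FC was -0.43 ± 0.70 after BS (adjusted p = 1), -0.31 ± 0.70 after BV (adjusted p = 1) and -0.56 ± 0.69 after conA (adjusted p = 0.804). Within chickens the values were -0.22 ± 0.12, -0.16 ± 0.12 and -0.28 ± 0.15, none of which passed (adjusted p = 0.612, 0.732 and 0.412). The negative values came mainly from chickens 1 and 2: after conA their log2 FC was -0.84, against 0.02 in chickens 3 to 6. In chickens 3 to 6 the values for BS (0.02) and BV (0.06) were also above 0, but single chickens lay on both sides. FTH1 was also lower than the control in chickens 5 and 6 after BS and in chickens 4 and 6 after BV.

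The chickens rich in FTH1 were also rich in thrombocyte markers. In chicken 1, FTH1 went from 109096.6 normalized counts in the control to 61490.8 after conA while the sum of these markers went from 97622 to 15763, and in chicken 2 FTH1 went from 47035.5 to 23803.7 while the sum went from 35784 to 2528. In chicken 4 FTH1 was 11953.5 in the control and 12401.5 after conA, with marker sums of 4441 and 674. In chicken 3 it was 15965.6 and 14956.6, with sums of 3851 and 1046, and in chicken 5 it was 19680.2 and 20106.6, with sums of 2138 and 1014. In chicken 6 it was 9905.2 and 10609.1, with sums of 966 and 981, the only sum that was not lower. ITGA2B, the defining integrin of thrombocytes, was detected in every library (196.0 to 35737.0 normalized counts). The part of these cells in the FTH1 values was not tested, and no pooled correlation is given because the libraries of chickens 1 and 2 stand apart.

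**Figure D3:**
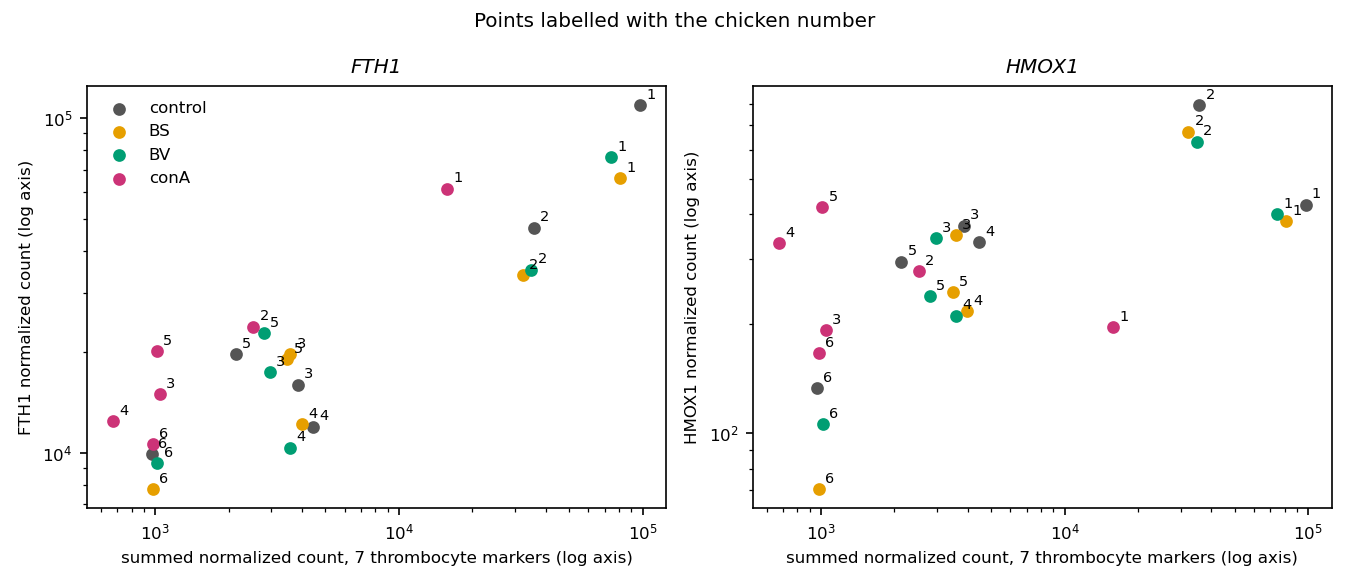
FTH1 (left) and HMOX1 (right) normalized read counts against the summed normalized count of 7 thrombocyte markers, all axes logarithmic, for 24 libraries coloured by treatment and labelled with the chicken number. The control, BS and BV libraries of chickens 1 and 2 lie at the upper right for FTH1, and the conA libraries of the same chickens lie further left, at marker sums of 15763 and 2528.

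NCOA4 encodes the cargo receptor that, in mammalian cells, carries ferritin to the lysosome and so releases its iron. Among control libraries it was the steadiest of the 8 genes. The control had 969.0 to 1044.5 normalized counts (median 1003.8), a coefficient of variation of 2.86%, and 0.161% of the 13035 genes varied less. After BS it had 970.1 to 1109.7 (median 1034.7), and after BV 969.7 to 1122.7 (median 1034.1). After conA it had 1023.3 to 1438.0 (median 1323.3). In 5 of the 6 conA libraries NCOA4 was above every control library, and the conA library labelled chicken 5, at 1023.3, lay within the control range.

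NCOA4 had 1266.0 ± 162.1 normalized counts after conA against 1002.0 ± 28.63 in the control (SD, n = 6), a log2 FC of 0.34 ± 0.10. It did not pass between groups (adjusted p = 0.0974) or within chickens (0.33 ± 0.09, adjusted p = 0.0537), and it passed in DESeq2 (0.33, adjusted p = 0.0299) and when all 24 libraries entered 1 edgeR fit (adjusted p = 0.0126). Leaving out 1 chicken at a time, log2 FC stayed between 0.30 and 0.39, with an adjusted p of 0.1 to 0.348. Over all 21 alternatives its adjusted p was 0.0126 to 0.547.

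NCOA4 was higher after conA in 6 of 6 chickens by the labelled numbers, by 264 ± 175.3 normalized counts (SD, n = 6), and in 4 of 4 without chickens 3 and 5. This held for 5.75% of all genes and for 1 of the 8 members. The exact paired permutation p was 0.03125, the smallest that 6 pairs allow (adjusted p = 0.293), and the exact unpaired permutation p was 0.00433.

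NCOA4 was also the member that was higher after conA than after either strain. Against BS, 1 of the 8 genes passed between groups, NCOA4 (log2 FC 0.31 ± 0.08, adjusted p = 0.0321), where 4.16% of all genes did. Against BV, 1 of 8 passed, again NCOA4 (0.29 ± 0.08, adjusted p = 0.0491), where 3.64% did. Both comparisons use the same conA libraries. Without chicken 1, 2, 3 or 6 the difference from BS no longer passed (adjusted p of 0.1 to 0.186), and that from BV passed without chicken 5 (adjusted p = 0.0197) but not without any other (0.0917 to 0.3). Within chickens 3 of 8 genes passed against BS (TFRC, NCOA4 and SLC40A1), where 13.1% of all genes did, and 3 of 8 against BV (NCOA4, SLC40A1 and ACO1), where 11.7% did. Without chickens 3 and 5, 3 of 8 passed within chickens in each of these comparisons (TFRC, NCOA4 and SLC40A1), beside 11.1% of all genes against BS and 10.7% against BV.

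SLC40A1 encodes ferroportin, the exporter of cellular iron. In the control it had 385.1 to 746.1 normalized counts (median 517.6). After BS it had 388.6 to 781.7 (median 501.2), after BV 387.4 to 676.9 (median 534.8), and after conA 323.8 to 430.5 (median 362.1). In 4 of the 6 conA libraries SLC40A1 was below every control, BS and BV library but not in conA libraries 1 and 3, at 396.7 and 430.5. The control library of chicken 3, at 385.1, was the lowest of its group.

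The level was 370.8 ± 38.33 normalized counts after conA and 550.5 ± 141.9 in the control (SD, n = 6). Log2 FC was -0.57 ± 0.16 between groups (adjusted p = 0.0719), and SLC40A1 fell within chickens (-0.54 ± 0.15, adjusted p = 0.0408) and in DESeq2 (-0.58, adjusted p = 0.0223). Within chickens it also passed without chickens 3 and 5 together (-0.58 ± 0.14, adjusted p = 0.0395) and without chicken 3 (adjusted p = 0.00856), but not without chicken 1, 2, 4, 5 or 6 (0.074 to 0.158). The direction was the same in chickens 1 and 2 (-0.77) and in chickens 3 to 6 (-0.44), and neither subset passed.

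By the labelled numbers SLC40A1 was lower after conA in 5 of 6 chickens, with chicken 3 the exception, and in 4 of 4 without chickens 3 and 5. The mean difference was -179.7 ± 159.5 (SD, n = 6), with an exact paired permutation p of 0.0625 and an exact unpaired permutation p of 0.00649. Against the strains, log2 FC within chickens was -0.48 ± 0.13 for conA against BS (adjusted p = 0.0114) and -0.47 ± 0.13 for conA against BV (adjusted p = 0.0124). Between groups the values were -0.51 ± 0.18 and -0.50 ± 0.18 (adjusted p = 0.122 and 0.143). The call within chickens was lost against BS without chicken 1 or 2 (adjusted p = 0.105 and 0.0975) and against BV without chicken 1, 2 or 5 (adjusted p = 0.0661, 0.088 and 0.0574). Thrombocyte markers were lower after conA too, and the monocyte or macrophage list summed to 300 to 1229 after conA. Their part in the SLC40A1 values was not tested.

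The strains left SLC40A1 within its control spread, with a log2 FC of -0.05 ± 0.19 after BS and -0.06 ± 0.19 after BV. It was higher than the control after BS in 4 of 6 chickens and lower after BV in 4 of 6.

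IREB2 and ACO1 encode the iron regulatory proteins IRP2 and IRP1, the RNA-binding sensors that set the output of the transferrin receptor, ferritin and ferroportin messages. IRP2 is known to be controlled mainly by degradation of the protein, and ACO1 protein works as a cytosolic aconitase when it carries an iron-sulfur cluster.

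IREB2 was among the least variable genes in these cells. The control had 2086.2 to 2375.2 normalized counts (median 2298.3), with a coefficient of variation of 4.87% that 1.44% of the 13035 genes went below. After BS it had 1836.4 to 2582.4 (median 2265.3), after BV 2070.3 to 2528.6 (median 2347.2), and after conA 2023.0 to 2490.2 (median 2228.3). All groups overlapped, and log2 FC was -0.02 ± 0.08 after BS, 0.04 ± 0.08 after BV and -0.01 ± 0.08 after conA. The 95% interval of the conA value was -0.19 to 0.17.

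ACO1 split the chickens into a higher and a lower set. In the control it had 423.3 to 878.0 normalized counts (median 656.6), with chickens 1, 3 and 5 at 800.4 to 878.0 and chickens 2, 4 and 6 at 423.3 to 512.9. After BS the range was 368.8 to 805.5 (median 607.2), after BV 465.1 to 903.6 (median 627.8), and after conA 367.8 to 662.1 (median 535.1). Chickens 1, 3 and 5 stayed above chickens 2, 4 and 6 in all 4 groups. ACO1 lies on chromosome Z, a sex chromosome of birds. The sex of the chickens is not given in the sources used here, and its part in this split was not tested.

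ACO1 was lower after conA than in the control in 6 of 6 chickens by the labelled numbers, with a mean difference of -130.7 ± 86.85 normalized counts (SD, n = 6), and in 4 of 4 without chickens 3 and 5. Lower values in 6 of 6 chickens were found for 4.93% of all genes and for 1 of the 8 members. The exact paired permutation p was 0.03125, the smallest that 6 pairs allow (adjusted p = 0.293). In edgeR ACO1 did not pass against the control, at -0.31 ± 0.20 between groups (adjusted p = 0.579) and -0.29 ± 0.10 within chickens (adjusted p = 0.104).

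Against BV, ACO1 was lower after conA in 6 of 6 chickens, as were 4.84% of all genes and 1 of the 8 members, and it fell within chickens (-0.27 ± 0.08, adjusted p = 0.0372). That call was lost without any chicken except chicken 4 (adjusted p of 0.056 to 0.181, against 0.0252 without chicken 4) and without chickens 3 and 5 together log2 FC was -0.21 ± 0.11. After BS, ACO1 was lower than the control in 5 of 6 chickens and after BV in 4 of 6, and neither difference passed.

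HMOX1 encodes haem oxygenase 1, the stress-inducible enzyme that opens the haem ring and frees its iron. In the control it had 133.1 to 795.4 normalized counts (median 353.6), highest in chicken 2 and lowest in chicken 6. After BS it had 70.2 to 672.6 (median 297.3), and after BV 106.0 to 632.1 (median 290.4). The ranges overlapped widely, but each chicken kept a similar place, with chicken 2 highest and chicken 6 lowest in all 3 groups.

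Within chickens, HMOX1 was lower after BS in 6 of 6 chickens, with a mean difference of -69.93 ± 41.61 normalized counts (SD, n = 6), or -17.8% of the control mean. After BV the mean difference was -71.23 ± 58.93 (SD, n = 6), or -18.1%, again with 6 of 6 chickens lower. A gene was lower in 6 of 6 chickens after BV in 2.62% of all genes and 1 of the 8 members. Both comparisons share the control libraries, so the second does not repeat the first independently. The exact paired permutation p was 0.03125 in each, the smallest possible, with adjusted p of 0.646 and 0.542.

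In edgeR, HMOX1 did not pass after either strain. Between groups log2 FC was -0.28 ± 0.49 after BS and -0.28 ± 0.49 after BV (adjusted p = 1 for both). Within chickens it was -0.33 ± 0.10 (adjusted p = 0.129) and -0.30 ± 0.10 (adjusted p = 0.173), and no chicken left out brought it past the threshold (adjusted p of 0.103 to 0.486). The erythrocyte list (10 of 10 symbols, globin genes included) summed to 347 to 12477 in the control (median 2844.5), 370 to 11210 after BS (median 5340.3) and 390 to 10891 after BV (median 4662.9), higher than the control of the same chicken in 4 and 5 of 6. Over all libraries TAL1, a member of this list that is not a globin gene, reached 10022.9, and HBBA, the highest of its globin genes, 4530.4. The sum is therefore not a measure of globin alone. The part of this list in the HMOX1 values was not tested.

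After conA, HMOX1 had 165.8 to 417.5 normalized counts (median 236.8). The range was narrower than in the control. Chicken 2 went from 795.4 to 278.2 and chicken 1 from 424.4 to 195.4. By the labelled numbers chicken 3 also went from 371.8 to 191.6, while chickens 5 and 6 were higher than their controls. Log2 FC was -0.57 ± 0.37 (adjusted p = 0.577), and HMOX1 was lower in 4 of 6 chickens. It was -1.33 ± 0.35 in chickens 1 and 2 (adjusted p = 0.291) and -0.02 ± 0.35 in chickens 3 to 6. As for FTH1, chickens 1 and 2 were those whose thrombocyte markers were high in the control and lower after conA. Their erythrocyte sums (12477 to 5200 and 4798 to 1326) and B cell sums (4566 to 2603 and 3411 to 1983) were so too. Over all libraries TAL1 of the erythrocyte list reached 10022.9, and BTK of the B cell list 3547.3, where CD79B reached 1258.5. Only sums of chicken 1 are large enough to hold these TAL1 and BTK values. In that chicken a sum can therefore be mostly a single gene, and it does not show more red cells or B cells. The part of any of these cells was not tested.

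The strains were also set against each other directly. Between groups 0 of the 8 genes differed between BS and BV, where 0% of all genes passed, and within chickens 0 of 8, where 0% passed. At an unadjusted p under 0.05, 0 of 8 were found between groups (1.12% of all genes) and 1 of 8, TFRC, within chickens (2.89%). DESeq2, between groups, also found 0 of 8, where it found 0.76% of all genes. For HMOX1 the log2 FC of BS against BV within chickens was -0.02, with a 95% interval of -0.23 to 0.19, and for NCOA4 it was -0.01 (-0.14 to 0.11). SLC11A1 had the widest interval of the 8, 0.65 (-0.01 to 1.31), at its low counts. These intervals bound the difference but do not show that the strains act alike.

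To set the members in their pathway, 8 lists of iron and haem genes, members included, were drawn up from known function, and 94 of their 115 symbols were tested. After BS or BV, 0 of the 94 passed between groups, where 0% and 0.00493% of all genes did. Within chickens 3 of 94 passed after BS, where 1.04% of all genes did, and 2 of 94 after BV, where 0.913% did. STEAP4, a metalloreductase that reduces iron and copper before uptake, rose after both strains. In the control it had 0 reads in 5 of 6 libraries and 4 reads in that of chicken 4, whereas all 6 BS and all 6 BV libraries held reads, 79 in each group. It had 2.0 to 40.6 normalized counts after BS (median 11.3), 1.8 to 42.5 after BV (median 8.6) and 0.0 to 9.6 after conA (median 0.5). Chicken 1 was the highest with both strains, and chicken 4 was slightly lower after each strain than in its control.

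The pooled level of STEAP4 was 21.5 times that of the control after BS (95% counting interval 8.09 to 81) and 19.4 times after BV (7.29 to 73), where the intervals cover counting error only. Without chicken 1 the ratios were 10.9 (3.96 to 42.1) and 10.6 (3.85 to 40.4). All 4 control reads came from chicken 4, which showed no rise, so leaving it out sets the control to 0. Taking 3 reads over all control libraries as the upper limit of 0, the pooled level was then at least 28.2-fold higher after BS. After BV it was at least 24.7-fold higher. These bounds follow from that choice and leave out counting error in the treated libraries and the spread between chickens. Within chickens log2 FC was 4.21 ± 0.81 after BS (adjusted p = 0.00422) and 4.14 ± 0.81 after BV (adjusted p = 0.00649), and at these low counts the fitted value depends on the model. Both calls were lost without chicken 1 (adjusted p = 0.183 and 0.274) and between groups (adjusted p = 0.783 and 0.98), and in DESeq2 they missed the threshold (adjusted p = 0.0634 and 0.0685). The BS and BV comparisons share the control libraries.

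PCBP2, which encodes an iron chaperone that also binds RNA, fell after BS within chickens (log2 FC -0.22 ± 0.05, adjusted p = 0.0376). It had 4319.3 to 7147.8 normalized counts after BS against 5602.2 to 9629.5 for controls, with 6 of 6 chickens lower. GCLM, the modifier subunit of the glutathione-making ligase, fell after BS within chickens (-0.20 ± 0.05, adjusted p = 0.046), with 6 of 6 chickens lower. MAFK, a partner of the haem sensor BACH1, fell after BV within chickens (-0.30 ± 0.07, adjusted p = 0.0216), also with 6 of 6 lower. None of these 3 passed between groups (adjusted p = 1 for each), and each call was lost without chicken 1 (adjusted p = 0.278, 0.211 and 0.324). That of GCLM was lost without any single chicken, that of PCBP2 also without chicken 2 or 6, and that of MAFK also without chicken 4 or 6. The other strain went the same way: PCBP2 after BV was higher than the control in 0 of 6 chickens (within chickens -0.18 ± 0.05, adjusted p = 0.127). GCLM was higher in 1 of 6 after BV, and MAFK in 1 of 6 after BS. Between BS and BV, 0 of the 94 genes passed within chickens, so these calls are not shown to be particular to a strain. Chicken 1 had the highest MAFK, 3955.3 in the control, beside its high thrombocyte, erythrocyte, B cell and monocyte or macrophage sums, whose part was not tested.

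After conA, 2 of the 94 genes of the lists passed between groups, where 2.34% of all genes did. SLC39A8 encodes ZIP8, a metal importer that carries zinc, manganese and iron. It rose from 4.4 to 38.1 normalized counts in the control (median 27.9) to 58.1 to 123.3 after conA (median 81.2), with separate ranges (log2 FC 1.83 ± 0.35, adjusted p = 0.0058). HSPA9, the mitochondrial chaperone mortalin that serves iron-sulfur cluster assembly among other tasks, rose from 2718.1 to 3362.3 (median 3030.6) to 3820.6 to 5574.0 (median 4540.8), also with separate ranges (0.60 ± 0.10, adjusted p = 0.00202). Both passed whichever chicken was left out. They missed the threshold between groups in chickens 1 and 2 alone (adjusted p = 0.423 and 0.583) and without chickens 3 and 5 together (log2 FC 1.95 and 0.56, adjusted p = 0.132 and 0.0699), and within chickens both passed without these 2 (adjusted p = 0.0162 and 0.0183).

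**Figure D4:**
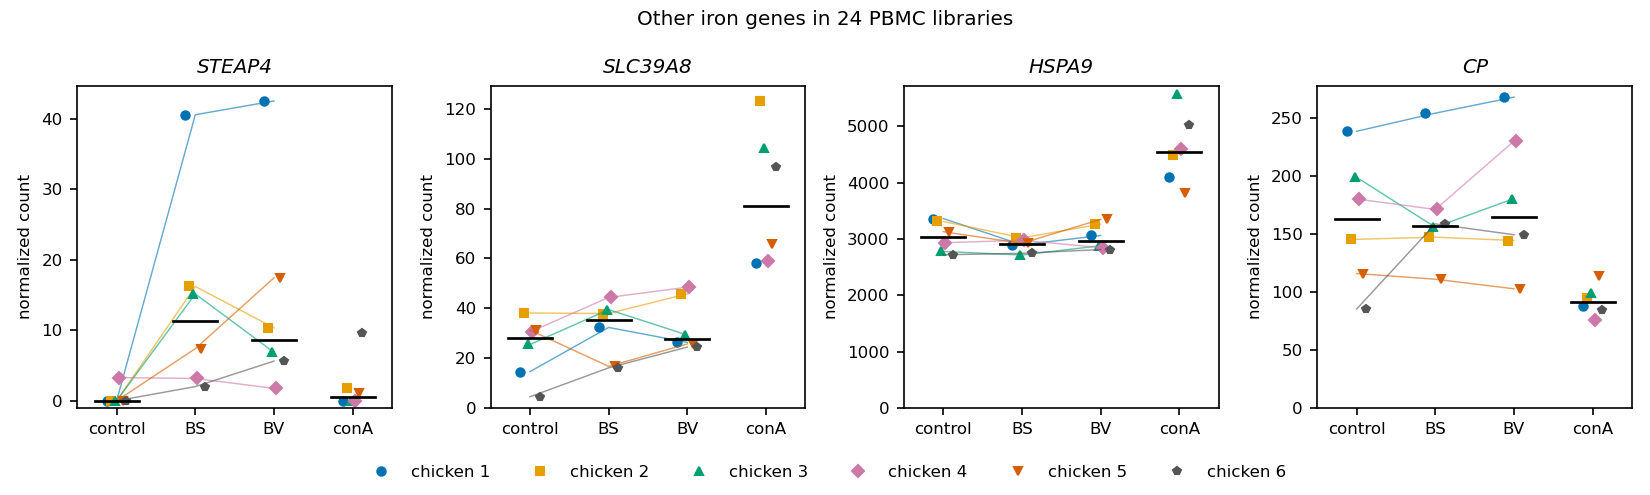
Normalized read counts of STEAP4, SLC39A8, HSPA9 and CP (vertical axes) in the control, BS, BV and conA libraries of 6 chickens (horizontal axis), with symbols for chickens, black bars for group medians and thin lines joining control, BS and BV. STEAP4 is at 0 in 5 control libraries and above 0 in every BS and BV library, and SLC39A8 and HSPA9 are higher in all conA than in all control libraries.

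By list, between groups, 1 of 11 iron uptake genes passed after conA (SLC39A8), 0 of 6 storage genes, 0 of 10 export genes, 0 of 7 sensors, 0 of 13 haem synthesis genes, 0 of 11 haem breakdown and transport genes, 1 of 22 iron-sulfur cluster genes (HSPA9) and 0 of 14 genes of the NFE2L2 and BACH1 oxidant response. In the same order, the median log2 FC of the lists was -0.15, -0.14, -0.40, -0.01, -0.12, -0.10, 0.02 and -0.31, beside -0.03 over all genes tested.

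Within chickens 7 of the 94 genes passed after conA, where 6.12% of all genes did. Besides SLC40A1, SLC39A8 and HSPA9 these were 4 genes that are named after their values were seen. CP, the ferroxidase ceruloplasmin that works with ferroportin, fell (-0.76 ± 0.21, adjusted p = 0.0451), from 85.2 to 238.4 normalized counts in the control to 75.7 to 113.5 after conA. NFS1, the desulfurase that supplies sulfur for clusters, fell (-0.44 ± 0.11, adjusted p = 0.032). In the control NFS1 had 4449.4 and 3197.7 normalized counts in chickens 1 and 2, against 1964.4 to 2149.9 in chickens 3 to 6. After conA it had 2238.4 and 1907.9, against 1657.3 to 1794.8. The larger falls were thus in chickens 1 and 2, and the part of their marker sums was not tested. GCLC, the catalytic partner of GCLM, also fell (-0.27 ± 0.07, adjusted p = 0.0485). SLC7A11, the cystine importer, rose (1.75 ± 0.41, adjusted p = 0.0386). Its mean was 140.3 normalized counts after conA and 41.97 in the control, with 5 of 6 chickens higher. SLC7A11 was also higher than the control in 6 of 6 chickens after BS (mean 64.96) and after BV (mean 67.8), and passed after neither. The share of all genes higher in 6 of 6 chickens after a strain is not given here. These counts therefore have nothing to be judged against, and both comparisons share the control libraries. Between groups none of these 4 passed (adjusted p of 0.0952 to 0.311). Within chickens SLC7A11 passed without chicken 5 alone (adjusted p = 0.00073, otherwise 0.051 to 0.131), CP without chicken 5 or 6 (0.0231 and 0.0465, otherwise 0.0986 to 0.18), NFS1 without chicken 3 or 5 (0.026 and 0.0431, otherwise 0.0624 to 0.16) and GCLC in no such fit (0.0527 to 0.163). Without chickens 3 and 5 together, NFS1 (-0.56, adjusted p = 0.0403) and SLC7A11 (1.94, adjusted p = 0.00292) passed within chickens, whereas CP (-0.88, adjusted p = 0.0687) and GCLC (-0.25, adjusted p = 0.244) did not.

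For conA against BS, 5 of the 94 genes passed between groups, where 4.16% of all genes did. Against BV 6 of 94 passed, where 3.64% did. NCOA4, SLC39A8, HSPA9, CP and FBXL5 passed in both, and TMPRSS6 against BV only. Within chickens 14 of 94 passed against BS and 16 against BV, where 13.1% and 11.7% of all genes did. FBXL5, the iron-sensing ligase that marks IRP2 for degradation, was also chosen after its values were seen. It was lower after conA than after BS (-0.34 ± 0.10, adjusted p = 0.0366) and BV (-0.37 ± 0.10, adjusted p = 0.0216) between groups. Within chickens the values were -0.33 ± 0.07 (adjusted p = 0.00175) and -0.36 ± 0.07 (adjusted p = 0.00079), and both passed whichever chicken was left out, with adjusted p of 0.00157 to 0.0189 and 0.0004 to 0.0106. Both also passed without chickens 3 and 5 together (adjusted p = 0.00751 and 0.00319). Between groups the call against BS held without chicken 1 alone (adjusted p = 0.0252) and that against BV without chicken 1 or 5 (0.0127 and 0.0201). Against the control, FBXL5 was -0.19 ± 0.10 after conA between groups (adjusted p = 0.435). After the strains it lay the other way, at 0.16 ± 0.05 for BS and 0.19 ± 0.05 for BV within chickens. Neither of these passed (adjusted p = 0.197 and 0.118). The comparisons of conA with BS and with BV share the conA libraries.

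The genes most like each member were sought by the Pearson correlation of log2 normalized counts, centred on the chicken, over the 24 libraries and 8591 genes with a symbol and a mean of at least 50. NCOA4 varied most like GPR157 (r = 0.946), XPNPEP1 (0.922) and ENO1 (0.915), and without the conA libraries these values were 0.814, 0.612 and 0.217. SLC40A1 varied most like PPM1H (0.909), CFAP70 (0.889) and ARMH3 (0.879), which became 0.531, -0.107 and 0.515 without conA. TFRC went with PUS1 (0.908), SUGT1 (0.894) and HDLBP (0.88). These points share chickens and treatments, and for NCOA4, SLC40A1 and TFRC the likeness was weaker in the 18 libraries without conA.

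IREB2 varied most like TOLLIP (r = 0.888), GPR137B (0.888) and SCFD1 (0.878), and kept these values without conA (0.901, 0.872 and 0.939). HMOX1 and FTH1 had a neighbour in common, the myosin gene MYO18A (r = 0.83 and 0.838), and they had a correlation of 0.717 with each other over 24 libraries and 0.449 over 18. ACO1 was nearest to RNF14 (0.816), NBR1 (0.815) and LONRF1 (0.8), and SLC11A1, at its low counts, to GPNMB (0.697). TFRC and NCOA4 had a correlation of 0.728 with conA and 0.189 without it.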

How the data were processed

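The authors trimmed the reads, aligned them to GRCg6a with STAR 2.7.3 and deposited read counts per Ensembl gene. Neither the counting tool nor the annotation release is given in the sources used here. The other deposited table is a normalized signal: each count over its library's DESeq2 1.24.0 size factor, and multiplied back it met the count to within 6.52e-09. All columns were used.

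Genes with at least 2 reads over 24 libraries were tested with edgeR 4.0.16 in R 4.3.3 (TMM, robust quasi-likelihood, Benjamini-Hochberg over 20266 genes). Control, BS and BV entered 1 fit, conA and control another, and all libraries the fit of conA against the strains. Standard errors come from log2 FC and the F statistic (log2 FC over its root), and 95% intervals use the degrees of freedom of the same test. Both edgeR designs, plain and with a chicken block, were also run on simulated counts with large changes and no differences between chickens. Such counts cannot show how the block performs where chickens differ, or how small changes are found. Normalized counts were compared by two-sided exact paired permutation tests, for which 6 pairs allow no p under 0.03125. Alternatives were DESeq2 1.42.0, other size factors, filterByExpr, other samples in the fit, chickens left out and chickens 1 and 2 or 3 to 6 alone. The fits without chickens 3 and 5 were chosen after seeing the data. Python 3.11.15 with scipy 1.17.1 and matplotlib 3.10.9 served for the rest.

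The numbers pair the libraries because they were taken to mark the same chicken, which conA libraries 3 and 5 did not bear out. Deviations from group means had correlations of 0.386 to 0.86 between same-numbered control and BS libraries, 0.506 to 0.881 for BV and -0.0344 to 0.768 for conA. The labels number the libraries of chickens 1 and 2 from 29 to 36, and those of chickens 3 to 6 from 37 to 48, with conA at 57 to 60, so that in chickens 3 to 6 treatment with conA and library number cannot be told apart.

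The members and the lists were chosen with earlier results of these data known. All members are named. From the wider lists, the rule names up to 5 genes per list that passed after conA at a mean of 10 normalized counts or more and any that passed after BS or BV. No genome or sequence of the files' build was used here, so no positions or sequences are given. The chromosome of ACO1 was looked up by its symbol in the annotation of another build.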

Additional observations from a re-analysis of the deposited data

Results flagged for a closer look

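For the 8 members and the 6 other iron genes named by rule, 56 sets of 6 values (1 per gene and group) were searched by Dixon's test. It looks for a single library far from the rest, and 8 sets were found. The test expects about 1 set in 20 for normally distributed values. These counts were not transformed, and STEAP4 had reads in only 1 control library. No excess over chance can therefore be read from the 8. Of these, 6 had chicken 1 as the highest library, the chicken with the highest sums of the thrombocyte and erythrocyte lists. FTH1 was 109096.6 normalized counts in the control (next value 47035.5) and 61490.8 after conA (next value 23803.7), MAFK was 3955.3 in the control and 3051.9 after BS, and PCBP2 was 9629.5 in the control. STEAP4 was 40.59 after BS in chicken 1, 3.287 in the control library of chicken 4 and 9.566 in the conA library of chicken 6. The sets of 1 gene share their chickens and are not independent.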

How the results depend on the processing

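The numbers of genes that passed depended on the chicken term. With the chicken as a block, all-gene counts were 210 for BS (0 without it), 185 for BV (1), 1240 for conA against control (474), 2661 for conA against BS (844) and 2380 for conA against BV (737), and member counts for the last 3 were 1 (0), 3 (1) and 3 (1). Leaving out 1 chicken at a time, all-gene counts without the block were 0 for BS, 0 for BV, and 265 to 505, 530 to 919 and 455 to 806 for conA against control, BS and BV, and with the block 99 to 212, 62 to 173, 729 to 1153, 1755 to 2550 and 1570 to 2509. Member counts were then 0 to 1 for conA against control, and 0 to 3 against BS and against BV. DESeq2 gave 15 genes for BS, 10 for BV and 780 for conA, with 2 members for conA. DESeq2 size factors within edgeR left 0 genes for BV and 0 members for conA against BV. With other samples in the fit, 2 genes passed for BS, 0 for BV, 1 member for conA, and 0 members for conA against either strain. Chickens 1 and 2 alone gave 0 genes for BV and 28, 173 and 117 for the conA comparisons with control, BS and BV, and chickens 3 to 6 gave 0 for BV. Each subset gave 0 members for conA against BS and against BV. Chickens 1, 2, 4 and 6, chosen after seeing the data, gave 127, 355 and 343 genes and 0 members without the block, and 856, 2256 and 2168 genes and 1, 3 and 3 members with it. Members at an exact p under 0.05 numbered 2, 1 and 1 for BS, BV and BS against BV in the paired test, and 0, 0 and 0 unpaired. For conA against control, BS and BV they numbered 2, 0 and 1 in the paired test, and 2, 2 and 2 unpaired. A paired p under 0.05 needs all 6 chickens on the same side, and the shares of all genes given above for 6 of 6 chickens stand beside the paired counts. No share over all genes was computed for the unpaired test. Leaving out a chicken was not run for the exact test, since 5 pairs cannot reach 0.05.

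The sign turned only in log2 FC that passed no test. In chickens 3 to 6, FTH1 was 0.0242 for BS, 0.0612 for BV and 0.017 for conA, SLC11A1 was 0.161 for BS and ACO1 0.0042 for BV. In chickens 1 and 2, TFRC was -0.205 for BV, SLC40A1 0.117 and IREB2 0.128 for BS, IREB2 0.0387 for conA and NCOA4 -0.0201 for BV. TFRC for BV was -0.016 with the block. With 1 chicken left out, without and with the block, the ranges were -0.0562 to 0.064 and -0.0632 to 0.0352 for TFRC after BV, -0.337 to 0.224 and -0.292 to 0.298 for SLC11A1 after BS, -0.101 to 0.0407 and -0.0891 to 0.0278 for SLC40A1 after BS, -0.0563 to 0.0374 and -0.0602 to 0.0351 for IREB2 after BS, -0.0333 to 0.0279 and -0.0334 to 0.0274 for IREB2 after conA, and -0.0494 to 0.0129 and -0.0528 to 0.0107 for ACO1 after BV. The cause was not tested.

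Of the log2 FC values of single genes, 645 of the other settings kept sign and side of the threshold, 53 came to pass and 26 no longer passed. Depth limits SLC11A1 (3 to 64 reads per library) and STEAP4 most. Duplicate wells were pooled, so the spread between libraries holds differences between chickens and technical error together, and these cannot be told apart. The labelled numbers of conA libraries 3 and 5 limit every result of conA within chickens.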
